A study of Arabidopsis thaliana with 12 samples.

Results

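Expansins and xyloglucan endotransglucosylase/hydrolases (XTHs) are the proteins that loosen and remodel the growing plant cell wall. The 65 genes described here are the protein-coding genes whose description names either family or whose symbol begins with EXPA, EXPB, EXLA, EXLB or XTH, out of 38288 gene rows, 27558 of them protein-coding. They comprise 24 alpha-expansins, 6 beta-expansins, 3 expansin-like A genes, 1 expansin-like B gene, 25 XTHs of group I/II, which include TCH4 (XTH22), and 6 XTHs of group III. The same-family genes EXP3, EXGT-A3 and XTR6 and the pseudogene EXPA19 were not taken by this rule.

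Expansins are secreted proteins that let cellulose microfibrils and the matrix between them slide in an acid wall, without cutting the polymers. XTHs cut xyloglucan, the main hemicellulose of the Arabidopsis primary wall, and join the cut end to another xyloglucan chain, or in some members of group III to water. In leaves both families are known mainly from the phase of cell expansion, and many members respond to brassinosteroid, auxin, light or touch.

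Leaf RNA of Arabidopsis thaliana was sequenced in 4 groups of 3 libraries: the mutant line chlorella-1 aged 26 d, the wild type Col aged 26 d, chlorella-1 aged 14 d and Col aged 14 d. The design asks how the transcriptomes of the mutant and the wild type compare at the 2 ages. The series title names CHLORELLA as a long noncoding RNA directed to the chloroplast. The labels give 1 mutant line and do not state its lesion, which leaves of the rosette were taken, or whether replicates were separate plants. The p-values below therefore measure only the spread between these libraries, which may be technical. No row of the table is named CHLORELLA, so the targeted gene could not be read and genotypes are as labelled.

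Libraries held 45120547 to 70452171 counts, and levels are given in CPM (counts per 1000000 counts of the library), on library sizes adjusted by TMM. Plastid genes held 49.2% to 60.2% of the counts in chlorella-1 at 26 d and 71.4% to 72.4% in Col at 26 d. At 14 d they held 70.4% to 72.7% in chlorella-1 and 65.6% to 68.9% in Col. Levels and sums compared between groups therefore depend on that adjustment. The leaf mesophyll markers RBCS1A, RCA, LHCB1.1 and LHCB2.1 were present in every group, and at 26 d they summed to between 297 and 701 CPM in chlorella-1 and between 2989 and 5011 CPM in Col. At 14 d their sum was between 9081 and 10040 CPM in chlorella-1 and between 10470 and 12126 CPM in Col. The senescence markers SAG12 and NYE1 held 3180 to 5998 CPM in chlorella-1 at 26 d, against 122 to 266 CPM in Col at 26 d. Of 7 pollen markers, 5 had counts in chlorella-1 at 26 d, summing to 65.4, 18.0 and 68.5 CPM, whereas their sum was at most 0.255 CPM in Col at 26 d and 0 in both groups at 14 d. Of the 3 male germ line markers in that list, GCS1 and DUO1 were at 0 in all groups, and MGH3, a histone gene of the male gametes, had 19 counts over the chlorella-1 libraries at 26 d and 0 in the other groups. The dividing-cell markers summed to between 0.229 and 0.586 CPM in chlorella-1 at 26 d, between 0.0917 and 0.579 CPM in Col at 26 d, between 2.51 and 2.79 CPM in chlorella-1 at 14 d and between 3.08 and 4.13 CPM in Col at 14 d. The parts of these marker changes in the results below were not tested. In bulk leaf RNA, fewer cells of a type and less RNA per cell cannot be told apart.

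Among the libraries, Col 26 d replicate 2 was the highest of its group for 27 of the 39 members that could be tested. How often each library was the highest over all genes was not counted. Chlorella-1 26 d replicate 2 was the highest of its group for 17 of the 39. The replicate 2 libraries at 14 d were the highest for 19 of the 39 in each genotype. At 26 d, rank correlations between replicates over all genes were lowest in chlorella-1 (0.929 to 0.971), then Col (0.969 to 0.982). At 14 d they were 0.989 to 0.992 in chlorella-1 and 0.991 to 0.992 in Col.

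Of the 65 genes, 47 had counts in at least 1 library and 39 passed the filter on low counts. The 18 genes at 0 in all 12 libraries included EXPA7 and EXPA18, both known from root hairs, and the root hair markers summed to at most 0.571 CPM in any library. Another 8 genes had counts but were too low to test, with at most 31 counts in a library. Of these, EXPB5, a beta-expansin described from Arabidopsis pollen tubes, had 31, 3 and 21 counts in the chlorella-1 libraries at 26 d and 0 counts in the other 9 libraries. The pollen markers summed to 65.4, 18.0 and 68.5 CPM in the same chlorella-1 libraries, and their part in the EXPB5 counts was not tested. EXPA17, EXPA24 and XTH12 were likewise read only in chlorella-1 at 26 d, with 5, 4 and 5 counts, each in 1 library.

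**Figure D1:**
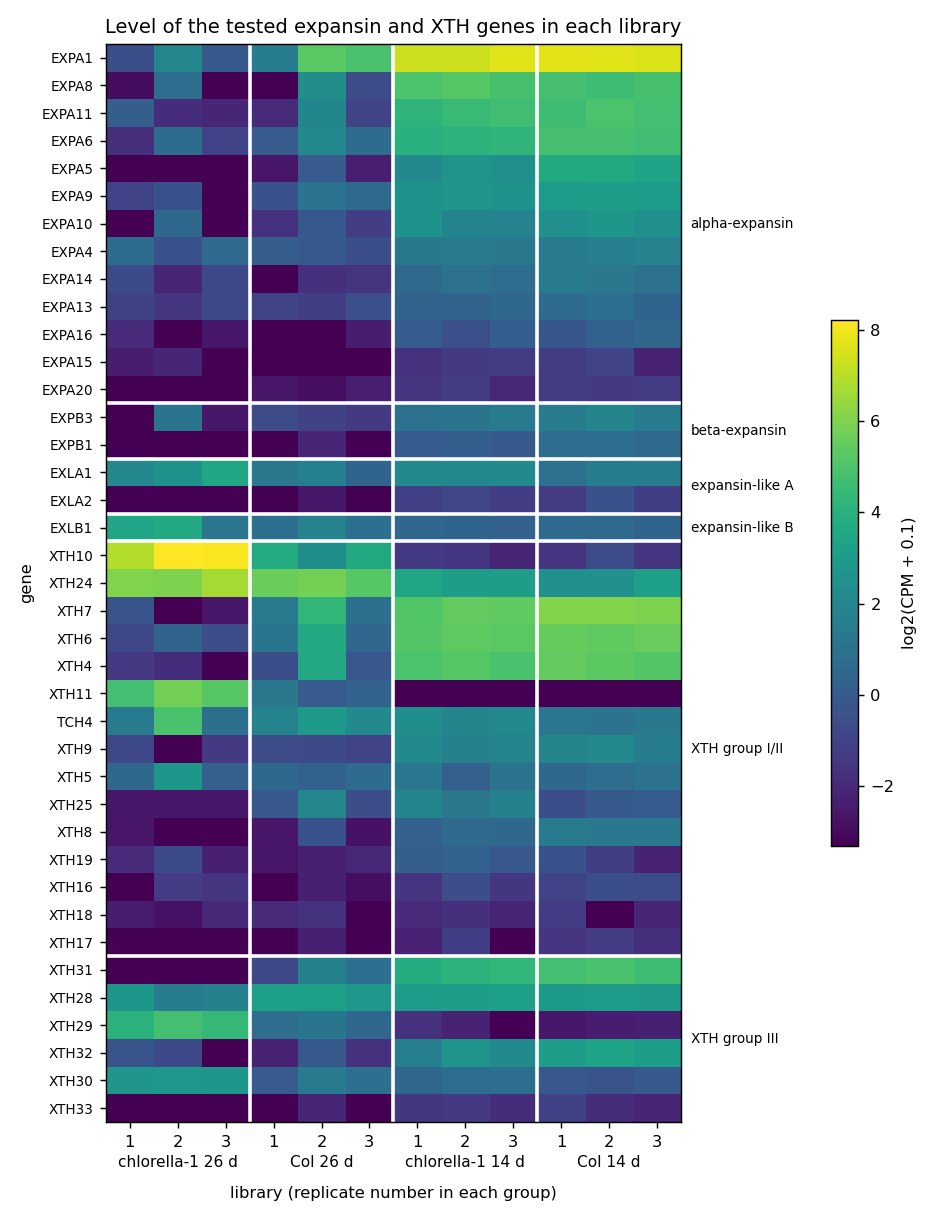
Heat map of log2(CPM + 0.1) for the 39 tested members (rows, by subfamily and falling mean level) in the 12 libraries (columns, by group and replicate). Most rows are bright in the 6 libraries at 14 d and dark at 26 d, while XTH10, XTH11, XTH24, XTH29 and XTH30 are brighter at 26 d than at 14 d in both genotypes.

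The families' total output and its makeup differed by age and genotype. All members together summed to 270, 524 and 467 CPM in chlorella-1 at 26 d, 101, 204 and 114 CPM in Col at 26 d, 416, 452 and 475 CPM in chlorella-1 at 14 d and 555, 550 and 520 CPM in Col at 14 d. The sum in each old chlorella-1 library lay above that in each old Col library, and the sum in each young chlorella-1 library lay below that in each young Col library. At 26 d the expansins held between 17.4 and 31.7 CPM in chlorella-1 and between 10.9 and 63.9 CPM in Col. At 14 d they held between 260 and 305 CPM in chlorella-1 and between 312 and 336 CPM in Col. The XTHs held 249, 493 and 450 CPM in chlorella-1 at 26 d, against 89.7, 140 and 74.6 CPM in Col at 26 d. At 14 d they held 156 to 179 CPM in chlorella-1 and 208 to 219 CPM in Col. The members' sum in old leaves was therefore mostly XTH counts, and that in young leaves was more expansin than XTH counts in both genotypes.

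A single gene led each group. XTH10 gave 54.9% of the members' mean sum in chlorella-1 at 26 d and XTH24 gave 34.2% in Col at 26 d. EXPA1 gave 39.3% in chlorella-1 at 14 d and 37.0% in Col at 14 d. Levels per kilobase of exon, which allow genes to be compared, put XTH10 first in chlorella-1 at 26 d with 170 ± 72.1 CPM per kb, followed by XTH24 with 63.7 ± 18.2, XTH11 with 31.4 ± 10.6 and XTH29 with 15.7 ± 3.66 (SD, n = 3). The libraries' ranges of each of these genes did not overlap those of the next. In Col at 26 d, XTH24 was first with 39.4 ± 7.73 CPM per kb, and EXPA1 (15.4 ± 12.1) and XTH10 (7.75 ± 3.39) followed with ranges that overlapped each other. In chlorella-1 at 14 d, EXPA1 stood at 114 ± 13.3 CPM per kb and XTH7 at 31.2 ± 4.46. In Col at 14 d, EXPA1 stood at 129 ± 7.80 CPM per kb and XTH7 at 51.9 ± 1.97.

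**Figure D2:**
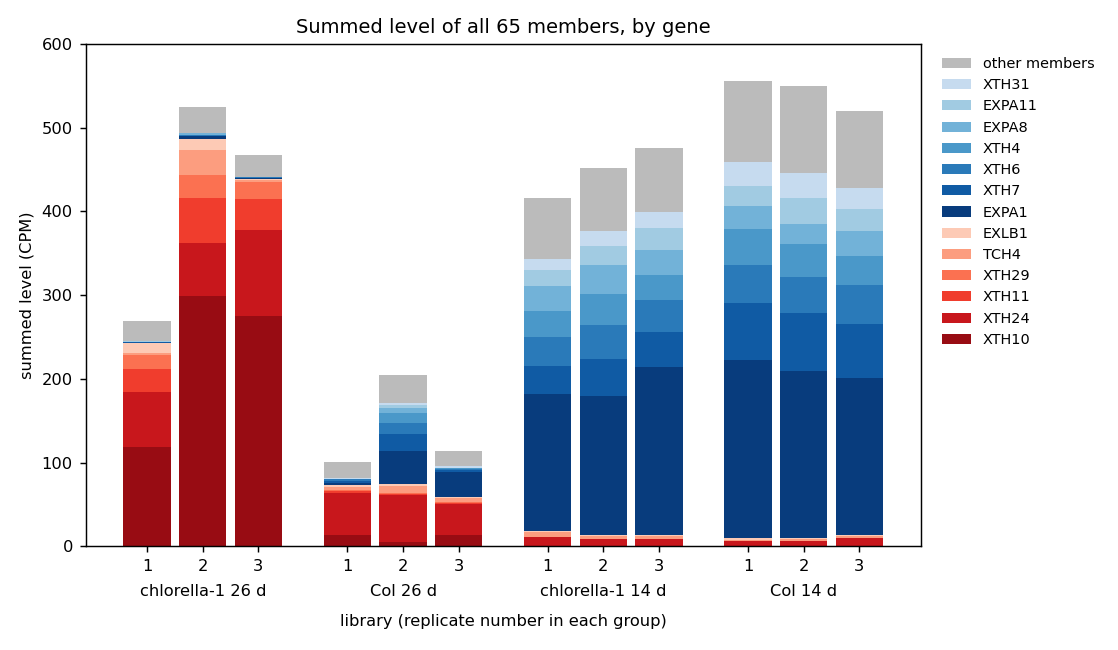
Stacked bars of the summed CPM of all 65 members in each library. Red shades mark the 6 leading genes of chlorella-1 at 26 d, blue shades 7 genes that led at 14 d and grey the rest. The leading genes of Col at 26 d include EXPA1, XTH7 and XTH6 (blue) and XTH28 (grey). XTH10 is the tallest block in the 3 libraries of chlorella-1 at 26 d, and EXPA1 is the tallest block in the 6 libraries at 14 d.

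More members were called with age than between the genotypes at either age. In chlorella-1, 26 of the 39 tested members fell and 6 rose with age in edgeR's quasi-likelihood test at a Benjamini-Hochberg adjusted p under 0.05, the rule for every call below. Over all genes tested, 71.2% were called in chlorella-1, 36.0% lower and 35.2% higher. In Col, 24 members fell and 5 rose, while 39.4% of all tested genes were called, 20.2% lower and 19.3% higher. The median log2 fold change of the tested members was -3.38 in chlorella-1 (-3.29 with the 8 members at 0 counts in a group set at their bound) and -2.88 in Col, while the median of all genes was -0.11 in chlorella-1 and 0.01 in Col. These counts include members that passed the filter only through the age at which they were high. Read against all 65 members, 26 fell in chlorella-1 and 24 in Col. The age comparisons of the 2 genotypes share no library.

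The alpha-expansins moved one way with age: 12 of the 13 tested fell in chlorella-1 and 13 of 13 fell in Col. EXPA1, the most abundant member in young leaves and known from guard cells and roots, had 0.574, 4.0 and 0.845 CPM at 26 d and 163, 165 and 200 CPM at 14 d in chlorella-1. In Col it had 2.86, 38.7 and 30.1 CPM at 26 d and 213, 200 and 188 CPM at 14 d. All old libraries lay below all young ones in both genotypes, and 1 old Col library lay among the old chlorella-1 values. The log2 fold change with age was -6.63 ± 0.98 in chlorella-1 (SE, adjusted p = 8.74e-05) and -3.07 ± 0.82 in Col (adjusted p = 0.0117). The value in chlorella-1 was -7.96 without chlorella-1 26 d replicate 2, the highest of the old chlorella-1 libraries.

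EXPA5, which is known as a brassinosteroid-responsive gene, had 0 counts in the 3 chlorella-1 libraries at 26 d, against 4.55, 6.28 and 5.51 CPM at 14 d. With 3 counts over the group as the floor, that is at least 306-fold lower at 26 d. In Col it had 0.0612, 0.885 and 0.0985 CPM at 26 d and 12.7, 12.7 and 10.7 CPM at 14 d, a log2 fold change of -5.13 ± 0.71 (adjusted p = 0.000504) that was -7.21 without Col 26 d replicate 2. Thus the gene was read in all 9 libraries other than those of old chlorella-1 leaves. EXPA6, EXPA8, EXPA11 and EXPA16 fell in both genotypes, with log2 fold changes of -3.29 to -5.92 in chlorella-1 and -3.64 to -5.17 in Col. These sizes rested on single old libraries. In chlorella-1, the log2 fold change without chlorella-1 26 d replicate 2 was -5.89 for EXPA6, against -4.66 with it, and -10.79 for EXPA8, against -5.92 with it, with 2 counts of EXPA8 left in the old libraries. Leaving out chlorella-1 26 d replicate 1 gave -7.09 for EXPA11 and -4.38 for EXPA16, against -5.56 and -3.29 with it, and without replicate 1 or 3 it was -5.23 or -5.19 for EXPA8. In Col, the log2 fold change without Col 26 d replicate 2 was -4.46 for EXPA6, -6.68 for EXPA8 and -6.57 for EXPA11, against -3.64, -3.85 and -4.25 with it. EXPA16 had its only counts of old Col leaves, 5 in all, in replicate 3, and without replicate 1 its log2 fold change in Col was -4.54, against -5.17 with it. The fall of EXPA8 in Col was lost without any of 8 libraries in turn (adjusted p = 0.0522 to 0.121).

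EXPA10, an alpha-expansin known to promote leaf growth, had 0, 1.35 and 0 CPM at 26 d and 5.81, 3.58 and 3.41 CPM at 14 d in chlorella-1. In Col it had 0.214, 0.817 and 0.328 CPM at 26 d and 5.70, 6.91 and 5.38 CPM at 14 d. The whole signal of old chlorella-1 leaves came from replicate 2. The log2 fold change with age was -3.38 ± 1.07 in chlorella-1 (adjusted p = 0.0139) and -3.73 ± 1.05 in Col (adjusted p = 0.0153). The chlorella-1 call was lost when only the chlorella-1 groups were fitted (adjusted p = 0.0795). With chlorella-1 26 d replicate 2 left out, the old chlorella-1 leaves were at 0, at least 176-fold lower than at 14 d, and without replicate 1 or 3 the log2 fold change was -2.67 or -2.65. In Col it was -4.46 without Col 26 d replicate 2, and the call was lost without Col 26 d replicate 1 or 3 (adjusted p = 0.0619 and 0.0626). EXPA15 was the 1 alpha-expansin not called in chlorella-1.

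Among the other expansins, EXPB1 and EXLA2 were at 0 in old chlorella-1 leaves. EXPB1 was at least 51.9-fold lower at 26 d than at 14 d in chlorella-1 and fell by 5.13 ± 0.85 on the log2 scale in Col. EXLA2, an expansin-like gene known from fungal infection and hypocotyl growth, was at least 21.4-fold lower at 26 d in chlorella-1 and fell by 4.19 ± 0.93 in Col. In old Col leaves both genes were read in replicate 2 alone, and without it the fall in Col was at least 68.0-fold for EXPB1 and at least 18.3-fold for EXLA2. Without Col 26 d replicate 1 or 3 the log2 fold change in Col was -4.49 or -4.52 for EXPB1 and -3.56 or -3.60 for EXLA2. EXLB1 went the other way: it had 11.4, 13.0 and 2.21 CPM at 26 d and 1.32, 1.22 and 1.14 CPM at 14 d in chlorella-1, a log2 fold change of 2.85 ± 0.53 (adjusted p = 0.000483). In Col, EXLB1 had 1.76, 3.34 and 1.76 CPM at 26 d and 1.54, 1.47 and 1.2 CPM at 14 d, which did not pass the test (0.70 ± 0.51, adjusted p = 0.299).

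The XTHs divided. In both genotypes XTH10, XTH11 and XTH24 of group I/II and XTH29 and XTH30 of group III rose with age, and these were the 5 members called higher in both. XTH10 (AT2G14620, chr2:6244772-6246279 in TAIR10.1) had 119, 299 and 275 CPM at 26 d and 0.285, 0.257 and 0.129 CPM at 14 d in chlorella-1. In Col it had 13.5, 5.23 and 12.9 CPM at 26 d and 0.234, 0.534 and 0.244 CPM at 14 d. The groups of the 2 ages were wide apart in each genotype, with log2 fold changes of 9.99 ± 0.64 in chlorella-1 (adjusted p = 1.43e-07) and 4.95 ± 0.53 in Col (adjusted p = 5.18e-05).

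XTH11 (AT3G48580, chr3:18007098-18008535) had 27.3, 53.7 and 37.1 CPM in chlorella-1 at 26 d and 2.35, 0.885 and 1.13 CPM in Col at 26 d. It had 0 counts in all 6 libraries at 14 d. It was therefore at least 2161-fold higher at 26 d than at 14 d in chlorella-1 and at least 97.9-fold higher in Col.

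XTH29, of the group III branch that also holds XTH30, had 17.3, 27.2 and 20.8 CPM at 26 d and 0.214, 0.112 and 0 CPM at 14 d in chlorella-1. In Col it had 1.64, 2.18 and 1.41 CPM at 26 d and 0.0688, 0.0889 and 0.105 CPM at 14 d. Its log2 fold change with age was 7.60 ± 0.52 in chlorella-1 (adjusted p = 2.19e-07) and 4.30 ± 0.52 in Col (adjusted p = 0.000102). In chlorella-1 it was 8.46 without chlorella-1 14 d replicate 1. XTH24 rose in both, by 3.02 ± 0.27 in chlorella-1 and 2.81 ± 0.27 in Col. XTH30 rose by 2.09 ± 0.31 in chlorella-1 and by 1.15 ± 0.31 in Col, where the call was lost without Col 14 d replicate 2 (adjusted p = 0.0506) or Col 26 d replicate 2 (adjusted p = 0.0554).

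The XTHs that led young leaves fell. XTH4, XTH6 and XTH7 had 29.9 to 44.1 CPM in chlorella-1 at 14 d and 35.3 to 68.7 CPM in Col at 14 d. Their log2 fold changes with age were -5.71 to -7.70 in chlorella-1 and -3.0 to -3.09 in Col. The sizes in Col rested on Col 26 d replicate 2, without which they were -5.85 for XTH4, -4.68 for XTH6 and -4.95 for XTH7. The values in chlorella-1 without chlorella-1 26 d replicate 1 were -8.58 for XTH4 and -9.92 for XTH7, against -7.70 and -7.13 with it. Without replicate 3 that of XTH4 was -7.03. The value of -9.92 lies near the count floor, since replicate 1 held most reads of XTH7 in old chlorella-1 leaves. In Col the fall of XTH4 was lost without Col 14 d replicate 1, Col 26 d replicate 1 or Col 26 d replicate 3 (adjusted p = 0.0513, 0.0519 and 0.0638). That of XTH7 was lost without Col 26 d replicate 1 or 3 (adjusted p = 0.0678 and 0.0621).

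XTH31, a group III member known for xyloglucan hydrolase activity and for its part in aluminium binding by root walls, had 0 counts in old chlorella-1 leaves, against 14.2, 17.5 and 19.7 CPM at 14 d, at least 959-fold lower at 26 d. In Col it had 0.459, 3.27 and 1.76 CPM at 26 d and 27.7, 30.2 and 24.4 CPM at 14 d (log2 fold change -3.91 ± 0.54, adjusted p = 0.000468, and -4.64 without Col 26 d replicate 2). Its close relative XTH32 fell by 3.50 ± 0.79 in chlorella-1 and by 4.60 ± 0.81 in Col. Its value in chlorella-1 was -4.32 without chlorella-1 26 d replicate 1 and -2.84 without replicate 3, and that in Col was -5.77 without Col 26 d replicate 2. XTH33, which is held at the plasma membrane, was at least 13.6-fold lower at 26 d in chlorella-1 and was not called in Col (-2.34 ± 1.07, adjusted p = 0.112). Its 8 counts in old Col leaves all came from replicate 2. Without that library the fall in Col passed the test (adjusted p = 0.0067), and limma voom called it with all libraries (adjusted p = 0.00986).

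**Figure D3:**
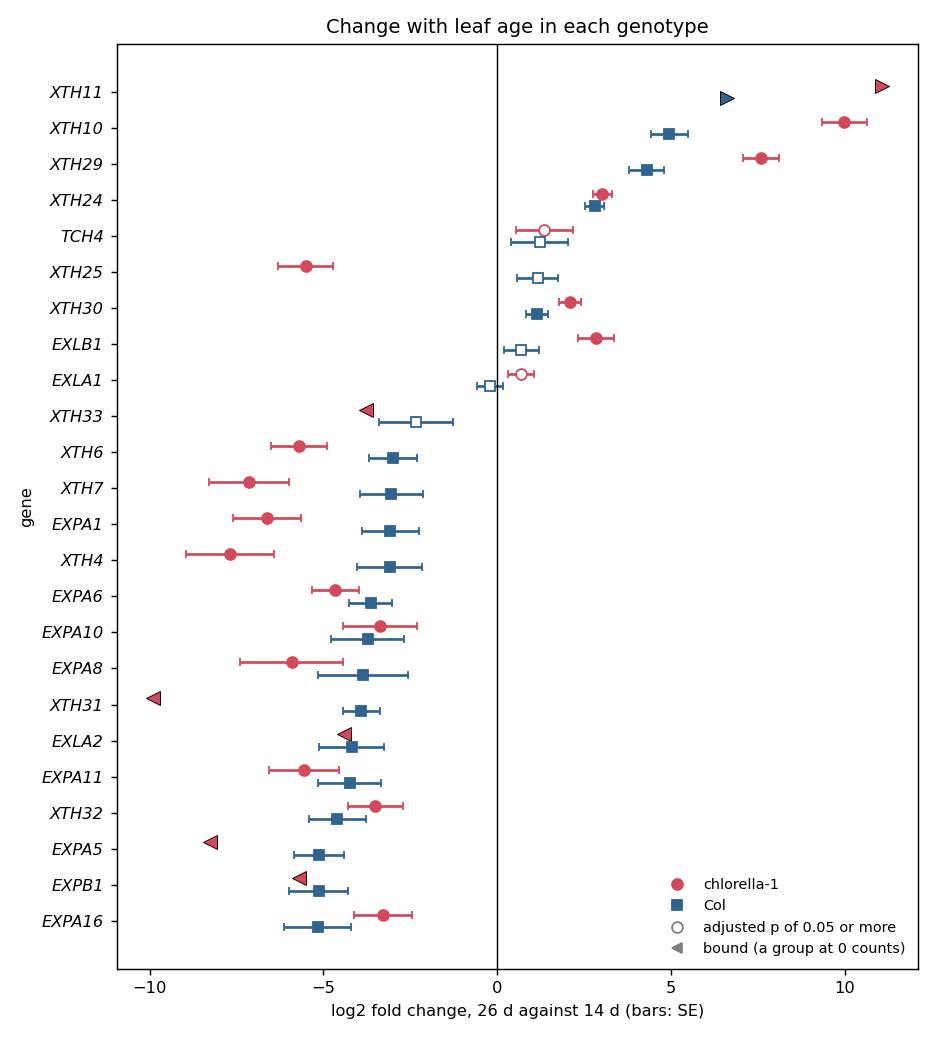
Log2 fold change with age (26 d against 14 d, bars are SE) of 24 named members in chlorella-1 (red circles) and Col (blue squares), with open symbols where the adjusted p is 0.05 or more and triangles for bounds where a group is at 0 counts. XTH10 and XTH29 lie further to the right in chlorella-1 than in Col, and XTH25 lies at -5.51 in chlorella-1 and at 1.17 in Col.

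The 250 bases before the annotated start of 6 members are shown because much of the description turns on these genes: XTH10, XTH11 and XTH29 rose with age, and EXPA1, XTH7 and XTH31 fell. They were read from the TAIR10.1 genome on the strand of the gene, 5′ to 3′, ending 1 base before the annotated start, and none overlaps another annotated gene. Capitals mark matches, on either strand, to the W-box core TTGAC of WRKY factors, the brassinosteroid response element CGTGTG or CGTGCG, the G-box CACGTG, and the HD-Zip site CAATNATTG.
XTH10, chr2:6244522-6244771, plus strand: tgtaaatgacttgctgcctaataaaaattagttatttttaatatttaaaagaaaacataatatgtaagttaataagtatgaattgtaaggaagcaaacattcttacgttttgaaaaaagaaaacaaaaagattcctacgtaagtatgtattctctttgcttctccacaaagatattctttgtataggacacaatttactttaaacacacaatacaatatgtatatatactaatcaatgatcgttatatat
XTH11, chr3:18006848-18007097, plus strand: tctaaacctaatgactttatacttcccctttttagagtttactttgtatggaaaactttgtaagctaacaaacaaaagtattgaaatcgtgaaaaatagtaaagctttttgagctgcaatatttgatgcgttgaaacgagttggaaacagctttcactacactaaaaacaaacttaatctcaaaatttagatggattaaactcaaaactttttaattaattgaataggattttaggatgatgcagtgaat
XTH29, chr4:10404394-10404643, minus strand: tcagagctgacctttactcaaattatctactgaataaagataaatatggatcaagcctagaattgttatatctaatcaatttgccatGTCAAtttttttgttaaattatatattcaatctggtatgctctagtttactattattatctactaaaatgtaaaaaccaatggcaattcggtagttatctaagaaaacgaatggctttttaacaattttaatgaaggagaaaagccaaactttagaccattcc
EXPA1, chr1:26141476-26141725, plus strand: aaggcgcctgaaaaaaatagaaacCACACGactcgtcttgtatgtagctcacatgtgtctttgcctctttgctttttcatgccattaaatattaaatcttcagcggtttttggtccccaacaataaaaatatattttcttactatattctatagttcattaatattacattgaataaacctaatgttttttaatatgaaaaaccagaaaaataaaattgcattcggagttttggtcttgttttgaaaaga
XTH7, chr4:17777446-17777695, minus strand: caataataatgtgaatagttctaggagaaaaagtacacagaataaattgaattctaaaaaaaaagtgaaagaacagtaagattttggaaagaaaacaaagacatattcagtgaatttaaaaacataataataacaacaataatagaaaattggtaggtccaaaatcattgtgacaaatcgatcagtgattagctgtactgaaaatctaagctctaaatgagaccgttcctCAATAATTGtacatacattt
XTH31, chr3:16448845-16449094, minus strand: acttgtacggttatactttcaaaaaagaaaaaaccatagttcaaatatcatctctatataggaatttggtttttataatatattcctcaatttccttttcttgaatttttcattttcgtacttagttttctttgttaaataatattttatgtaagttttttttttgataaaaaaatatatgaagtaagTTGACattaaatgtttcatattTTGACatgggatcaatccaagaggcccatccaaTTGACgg

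The windows of XTH10 and XTH11, the genes with the largest rises, hold none of these letters. XTH29 holds 1 W-box core, read as GTCAA on the printed strand, 163 to 159 bases before the start. EXPA1 holds 1 CGTGTG element, read as CACACG, 226 to 221 bases before its start. XTH7 holds the HD-Zip site CAATAATTG 20 to 12 bases before its start, and XTH31 holds 3 W-box cores in its last 62 bases.

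Over the same window in all 65 members and in 27437 protein-coding genes of the 5 nuclear chromosomes, CGTGTG was present in 10.8% of members and 5.37% of genes. Of the 21 members that fell with age in both genotypes, 4 held it (EXLA2, EXPA1, EXPA6 and XTH8), and none of the 5 that rose in both did. CGTGCG, the other form of that element, was present in 4.62% of members and 1.57% of genes, and in none of those 21 or 5 members. The G-box was present in 1.54% of members and 6.49% of genes, TTGAC in 43.1% of members and 44.9% of genes, and the HD-Zip site in 3.08% of members and 0.918% of genes. TTGAC was held by 8 of the 21 members that fell in both genotypes and 2 of the 5 that rose. The HD-Zip site was held by 1 of the 21 and none of the 5, and the G-box by none of either. The motifs may share bases with one another where they meet, and a match describes letters, not binding.

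At 26 d the mutant and the wild type differed in both directions. Of the 39 tested members, 8 were higher and 12 lower in chlorella-1 than in Col, or 20.5% and 30.8%, while 63.3% of all tested genes were called, 31.5% higher and 31.8% lower. The members' shares were therefore no greater than those of all genes. Their median log2 fold change was -0.38 (-0.27 with 8 members at their bound) and that of all genes -0.11. When only the 26 d groups were fitted, 28 members could be tested and 6 were higher and 6 lower, against 28.9% and 22.7% of all genes. Without Col 26 d replicate 2 in the fit of all groups, 9 were higher and 9 lower, against 6156 and 5903 of all 21030 genes tested. Without chlorella-1 26 d replicate 2, 10 were higher and 15 lower, against 6383 and 6467 of all 20871 genes tested.

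The members higher in chlorella-1 at 26 d were led by the XTHs that rose with age. The 26 d comparison shares its libraries with the age comparisons, so these results are not independent. XTH11 was higher by 4.75 ± 0.45 on the log2 scale (adjusted p = 6.11e-05), XTH10 by 4.45 ± 0.48 (adjusted p = 1.47e-05) and XTH29 by 3.64 ± 0.39 (adjusted p = 1.45e-05). For each of them all 3 chlorella-1 libraries lay above all 3 Col libraries, and the call held under all 27 alternatives tried. XTH30 had 6.47, 6.98 and 6.72 CPM in chlorella-1 and 0.887, 2.57 and 1.74 CPM in Col, higher by 1.96 ± 0.30 (adjusted p = 0.000197). XTH24 had 65.4, 63.4 and 102 CPM in chlorella-1 and 50, 55.8 and 37.5 CPM in Col. Its difference of 0.69 ± 0.25 (adjusted p = 0.0316) was lost under 11 of 27 alternatives, among them without Col 26 d replicate 1 (adjusted p = 0.0612), Col 26 d replicate 3 (adjusted p = 0.122) or chlorella-1 26 d replicate 3 (adjusted p = 0.099).

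Of the expansins, EXLA1, EXLB1 and EXPA15 were higher in chlorella-1 at 26 d. EXLA1 had 3.93, 5.90 and 10.9 CPM in chlorella-1 and 2.34, 3.03 and 1.23 CPM in Col (1.65 ± 0.38, adjusted p = 0.00283). This gene overlaps AT3G45980 on the opposite strand, and the strand setting of the counting is not stated, so its reads may include those of its neighbour. When only the 26 d groups were fitted, its call was lost without Col replicate 1 or 3 or chlorella-1 replicate 3 (adjusted p = 0.0626 to 0.0712). EXLB1 was higher by 1.96 ± 0.51 (adjusted p = 0.00545), although chlorella-1 replicate 3, at 2.21 CPM, lay within the Col range. In the fit of the 26 d groups its call was lost without any single library other than that one (adjusted p = 0.051 to 0.114). EXPA15 had 6, 6 and 0 counts in chlorella-1 and 0 in Col. That is at least 4.41-fold higher, with counts too low to say more.

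**Figure D4:**
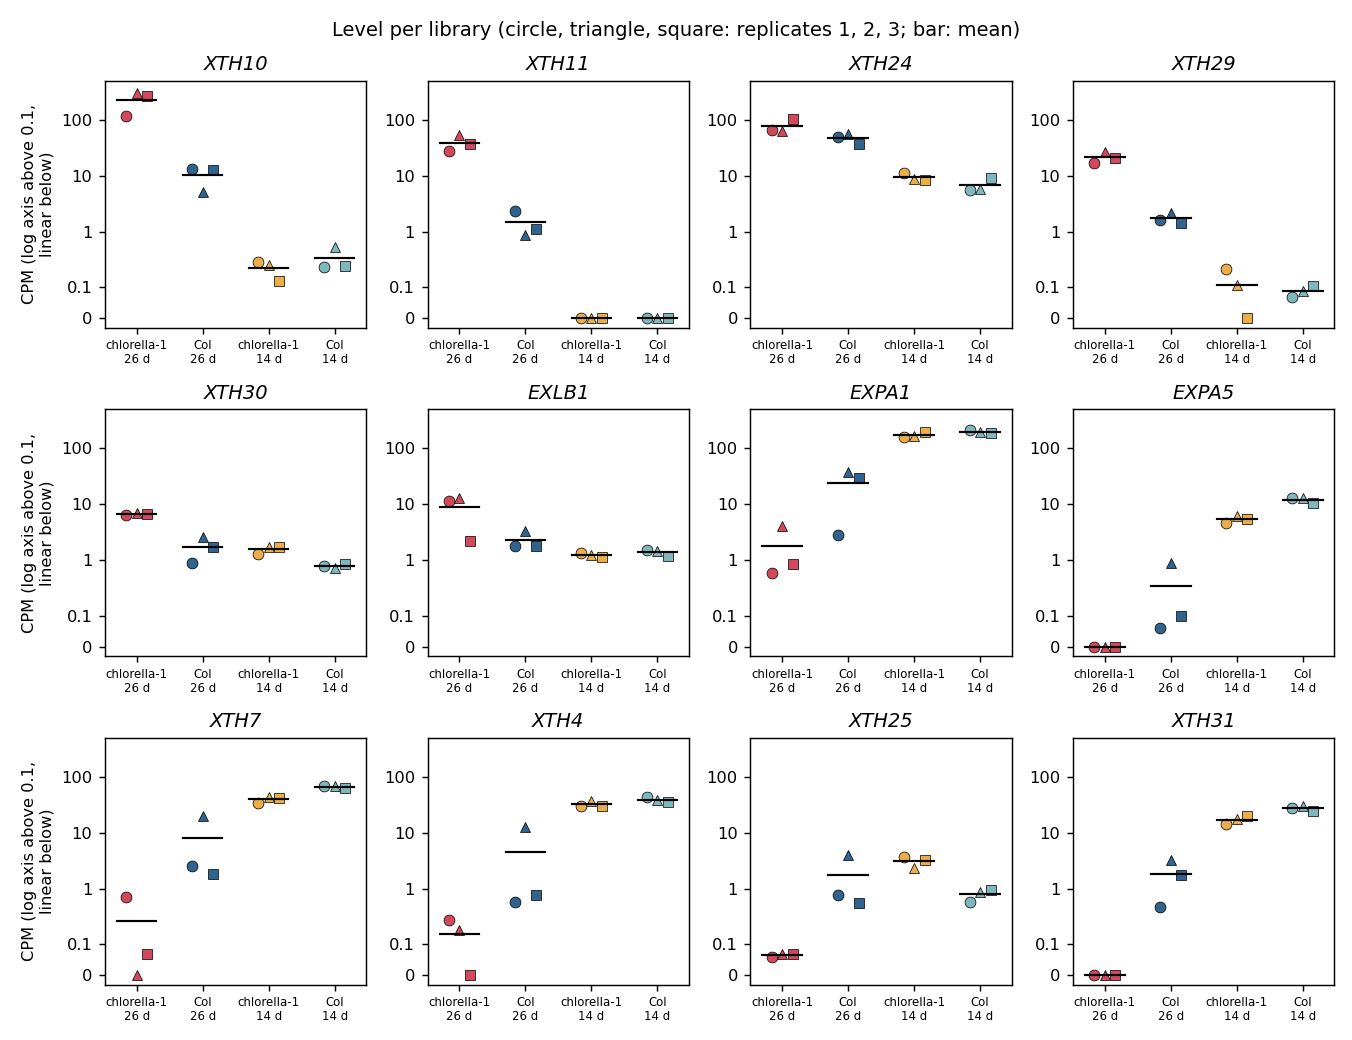
CPM of 12 members in each library, by group (chlorella-1 26 d, Col 26 d, chlorella-1 14 d, Col 14 d), on an axis that is logarithmic above 0.1 CPM and linear below. Symbols are libraries and bars are group means, and the triangle of Col at 26 d (replicate 2) is the highest of its group for EXPA5, XTH7, XTH4, XTH25 and XTH31.

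The 12 members lower in chlorella-1 at 26 d were the alpha-expansins EXPA1, EXPA5, EXPA6, EXPA9 and EXPA20, the group I/II genes XTH4, XTH6, XTH7, XTH8 and XTH25, and the group III genes XTH28 and XTH31. XTH31 was at least 99.5-fold lower (0 against 329 counts over the groups) and EXPA5 at least 18.8-fold lower. Without Col 26 d replicate 2 these bounds were at least 60.7-fold for XTH31 and at least 4.43-fold for EXPA5. EXPA20 had 0 counts in chlorella-1 and 12 in Col, at least 3.63-fold lower, and it overlaps AT4G38215 on the opposite strand, so its reads too may include those of its neighbour. XTH25 had 0.0604, 0.0686 and 0.0690 CPM in chlorella-1 and 0.780, 3.97 and 0.558 CPM in Col, with no overlap between the groups (-4.70 ± 0.79, adjusted p = 0.000333). Without Col 26 d replicate 2 the log2 fold change of XTH25 was -3.32. XTH28, known from stamen filament elongation, had 6.77, 2.79 and 3.16 CPM in chlorella-1 and 9.11, 9.16 and 7.04 CPM in Col (-0.99 ± 0.28, adjusted p = 0.00869). Its call was lost when only the 26 d groups were fitted (adjusted p = 0.0563).

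Col 26 d replicate 2 was the highest Col library for 11 of these 12 genes. XTH4 had 0.272, 0.183 and 0 CPM in chlorella-1 and 0.581, 12.4 and 0.771 CPM in Col, and XTH7 had 0.710, 0 and 0.0690 CPM in chlorella-1 and 2.51, 20.1 and 1.81 CPM in Col. XTH6 had 0.468, 1.19 and 0.569 CPM in chlorella-1 and 2.17, 13.3 and 1.31 CPM in Col. For each of these genes Col replicate 2 was the highest library, and the other 2 Col libraries also lay above the chlorella-1 range.

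With all 12 libraries the log2 fold changes were -4.88 ± 1.2 for XTH4, -4.83 ± 1.07 for XTH7 and -2.94 ± 0.73 for XTH6. Without Col 26 d replicate 2 they were -2.13 (adjusted p = 0.0105) for XTH4, -2.93 for XTH7 and -1.28 for XTH6. Leaving out chlorella-1 26 d replicate 1 instead gave -5.79 for XTH4 and -7.64 for XTH7, and without replicate 3 that of XTH4 was -4.26. The XTH7 value lies near the count floor, since replicate 1 held most of its reads in old chlorella-1 leaves. Of the 12 calls, 9 held without Col 26 d replicate 2 in the fit of all groups, and those of EXPA6, EXPA9 and XTH8 were lost. In the fit of the 26 d groups without that library, EXPA1, XTH4, XTH6 and XTH7 lost their calls (adjusted p = 0.0681, 0.171, 0.107 and 0.0997). They also lost them in that fit without chlorella-1 replicate 3 (adjusted p = 0.066 to 0.0873). XTH4 was not called by limma voom with all libraries (adjusted p = 0.0775). The call of EXPA6 was lost under 19 of 27 alternatives, among them without Col 26 d replicate 2 (adjusted p = 0.237), chlorella-1 26 d replicate 1 (adjusted p = 0.144) or chlorella-1 26 d replicate 3 (adjusted p = 0.147). Its log2 fold change was -1.66 with all libraries and -2.89 without chlorella-1 26 d replicate 2. EXPA1 (-3.75 ± 0.87, adjusted p = 0.00281) kept its call without Col 26 d replicate 2 in the fit of all groups, although its groups overlapped through Col 26 d replicate 1. In the fit of the 26 d groups its call was lost without Col replicate 2 or 3 or chlorella-1 replicate 1 or 3 (adjusted p = 0.0629 to 0.0702). With all groups fitted, the log2 fold change of EXPA1 was -5.08 without chlorella-1 26 d replicate 2. Of 4 guard cell markers, KAT1 (2.69 ± 0.20) and FAMA (1.79 ± 0.17) were higher in chlorella-1 at 26 d, GC1 (-2.71 ± 0.94) was lower and MYB60 was not called (-0.02 ± 0.31). Together they summed to between 35.1 and 40.4 CPM in chlorella-1 at 26 d and between 7.63 and 12.5 CPM in Col at 26 d, and their part in the EXPA1 result was not tested.

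Without chlorella-1 26 d replicate 2, which was the highest of its group for both, EXPA8 and EXPA10 were also called lower in chlorella-1 at 26 d. EXPA10 was then at 0 in chlorella-1, at least 18.3-fold lower (adjusted p = 0.000899), and EXPA8 had 2 counts there (adjusted p = 0.0199). With all libraries neither was called, with log2 fold changes of -0.14 for EXPA10 and -1.84 for EXPA8. Leaving out other single libraries also added calls: EXPA11 was lower without Col 26 d replicate 1 (-2.18, adjusted p = 0.0412) or chlorella-1 26 d replicate 1 (-3.17, adjusted p = 0.0418). EXPB1 and XTH33, at 0 in chlorella-1, were called lower without Col 26 d replicate 1 or 3 (adjusted p = 0.0287 to 0.0496). EXPA16 was called higher without Col 26 d replicate 3, with 15 counts in chlorella-1 and 0 in Col (adjusted p = 0.0242).

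TCH4, a touch- and brassinosteroid-inducible XTH, turned on 1 library. It had 2.55, 29.6 and 1.81 CPM in chlorella-1 and 3.50, 7.61 and 4.28 CPM in Col at 26 d, and with all libraries it was not called (1.14 ± 0.80, adjusted p = 0.233). Without chlorella-1 26 d replicate 2 it was lower in chlorella-1 (-1.23, adjusted p = 0.0061), and its log2 fold change with age in chlorella-1 was -1.01 (adjusted p = 0.0145). Without chlorella-1 26 d replicate 1 or 3 that change was 1.91 or 1.99 and also passed the test (adjusted p = 0.0467 and 0.027).

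At 14 d no member passed the test with all 12 libraries fitted. Over all genes 0.162% were called. An unadjusted p under 0.05 was found for 2 of the 39 members, both higher in chlorella-1, and for 1851 of all 20398 genes tested. In limma voom and DESeq2 no member was called either. The spread in that fit is shared with the more variable 26 d groups. With only the 14 d groups fitted, 14.6% of all genes were called, 6.40% higher and 8.19% lower. Of the 36 members tested there, 13 were called, 5 higher and 8 lower in chlorella-1. In 11 members all chlorella-1 libraries lay below all Col libraries and in 6 above, that is, 28.2% and 15.4% of those tested, against 15.8% and 15.0% of all genes.

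The members lower in chlorella-1 in that 14 d fit were EXPA5, EXPA6, EXPA9, EXPB1, XTH7, XTH8, XTH31 and XTH32. EXPA5 had 4.55, 6.28 and 5.51 CPM in chlorella-1 and 12.7, 12.7 and 10.7 CPM in Col (-1.14 ± 0.12, adjusted p = 0.000154). XTH7 had 33.6, 44.1 and 42.8 CPM in chlorella-1 and 68.0, 68.7 and 64.0 CPM in Col (-0.73 ± 0.11, adjusted p = 0.00121). For both genes the lowest Col library lay above the highest chlorella-1 library.

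XTH32 differed by -1.02 ± 0.19 (adjusted p = 0.00405), XTH31 by -0.68 ± 0.12 (adjusted p = 0.0027) and EXPA6 by -0.64 ± 0.09 (adjusted p = 0.000701). EXPA1, the most abundant member, did not pass (-0.19 ± 0.10, adjusted p = 0.254). The members higher in that fit were XTH25, XTH19, XTH30, TCH4 and EXLA1. XTH25 had 3.62, 2.31 and 3.30 CPM in chlorella-1 and 0.578, 0.860 and 0.923 CPM in Col (1.97 ± 0.23, adjusted p = 0.00027). TCH4, its neighbour in a tandem array on chromosome 5, had 5.35, 3.68 and 4.14 CPM in chlorella-1 and 2.24, 2.0 and 2.35 CPM in Col (1.0 ± 0.16, adjusted p = 0.00176). Reads of such near copies may have been split by the counting. When each of the 6 libraries was left out of that fit in turn, XTH19 kept its call only without Col 14 d replicate 1, and EXPB1 only without Col 14 d replicate 3 or chlorella-1 14 d replicate 2.

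The change with age differed between the genotypes, by the interaction term of the same fit, for 12 members, against 42.2% of all genes. In 4 of them the term was positive and in 8 negative. XTH10 (5.04 ± 0.73, adjusted p = 0.00035), XTH29 (3.30 ± 0.83, adjusted p = 0.00834) and EXLB1 (2.15 ± 0.72, adjusted p = 0.0318) rose more in chlorella-1. The call of EXLB1 was lost under 10 of 20 alternatives. For XTH11, at 0 in both 14 d groups, the term did not pass in edgeR (adjusted p = 1.0) and passed in limma voom (adjusted p = 0.0422) and DESeq2 (adjusted p = 0.02), and its size is not bounded by these counts.

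XTH25 fell with age in chlorella-1 (-5.51 ± 0.79, adjusted p = 6.90e-05), whereas in Col it was not called (1.17 ± 0.59, adjusted p = 0.142; 1.64 and adjusted p = 0.0382 without Col 26 d replicate 3), and the term was -6.67 ± 0.99 (adjusted p = 0.000393) or -5.29 without Col 26 d replicate 2. For XTH31 the term also passed (adjusted p = 0.00168), with its size unbounded because old chlorella-1 leaves were at 0. The terms of EXPA1 (-3.56 ± 1.13), XTH4 (-4.61 ± 1.48), XTH7 (-4.09 ± 1.33) and XTH6 (-2.71 ± 0.96) passed with all libraries and did not without Col 26 d replicate 2 (adjusted p = 0.0592, 0.0599, 0.0863 and 0.0812). Without that library they were -3.04 for EXPA1, -1.85 for XTH4, -2.19 for XTH7 and -1.04 for XTH6. They were also lost without several other single libraries, each Col 14 d library among them (adjusted p = 0.0501 to 0.0909). For EXPA5 the term did not pass with all libraries (adjusted p = 0.0511), but it passed without Col 26 d replicate 1, 2 or 3 (adjusted p = 0.0185, 0.0107 and 0.033) and in DESeq2 (adjusted p = 0.002). Without chlorella-1 26 d replicate 2 the terms of EXPA6 (-2.25, adjusted p = 0.0257), EXPA8 (adjusted p = 0.0371) and EXPA10 (adjusted p = 0.00458) passed as well, and without Col 26 d replicate 2 that of XTH30 did (1.33, adjusted p = 0.0175).

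The genes that make and trim xyloglucan and the other partners of these proteins were read from lists of loci. Of 12 xyloglucan synthesis genes, 7 were lower and 2 higher in chlorella-1 than in Col at 26 d (median log2 fold change -0.59), and 10 fell with age in chlorella-1 and 9 in Col. Over all genes tested, 31.8% were lower and 31.5% higher at 26 d, and 36.0% fell with age in chlorella-1 and 20.2% in Col. AXY4, which acetylates xyloglucan, was lower in chlorella-1 at 26 d by 2.55 ± 0.45 on the log2 scale, and XXT2, a xyloglucan xylosyltransferase, fell with age in chlorella-1 (-1.87 ± 0.25) and in Col (-0.98 ± 0.24). CSLC12, 1 of the 2 higher genes, had 1.68, 0.572 and 1.72 CPM in chlorella-1 at 26 d and 0 counts in Col at 26 d. The pollen markers summed to 65.4, 18.0 and 68.5 CPM in the same chlorella-1 libraries, and their part in the CSLC12 result was not tested.

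Of 5 trimming enzymes, 4 were lower in chlorella-1 at 26 d and none was higher (median log2 fold change -2.34), against 31.8% lower and 31.5% higher of all genes. XYL1, the main xyloglucan alpha-xylosidase, was lower in chlorella-1 at 26 d (-2.61 ± 0.16, adjusted p = 3.89e-07), and fell with age by 4.25 ± 0.17 in chlorella-1 and 1.36 ± 0.15 in Col. BGAL10, the xyloglucan beta-galactosidase, was lower in chlorella-1 at 26 d by 3.0 ± 0.40. Of 10 primary wall cellulose genes, 8 were lower and 1 higher in chlorella-1 at 26 d (median log2 fold change -1.40), and 10 fell with age in chlorella-1 and 9 in Col, against the same shares of all genes at 26 d and 36.0% and 20.2% falling with age. CESA2, a subunit of the synthase, was lower by 2.52 ± 0.24 and CTL1, a chitinase-like protein of the same process, by 2.25 ± 0.30. The 3 secondary wall synthase subunits were not called between genotypes at 26 d and fell with age in both.

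The plasma membrane proton pumps, which acidify the wall in which expansins act, went the other way between genotypes at 26 d and with age in chlorella-1. Of 10 tested pumps, 8 were higher and 1 lower in chlorella-1 at 26 d, with a median log2 fold change of 1.81, against 31.5% higher and 31.8% lower of all genes. With age 7 rose and 1 fell in chlorella-1, against 35.2% higher and 36.0% lower of all genes. In Col 1 rose and 2 fell, against 19.3% higher and 20.2% lower of all genes. AHA2 was higher in chlorella-1 at 26 d by 1.76 ± 0.26 and AHA5 by 2.45 ± 0.24, while AHA11 was lower by 2.69 ± 0.21. AHA9 was read only in chlorella-1 at 26 d, at 0.665, 0.869 and 0.862 CPM. The pollen markers summed to 65.4, 18.0 and 68.5 CPM in the same libraries and to at most 0.255 CPM in Col at 26 d, and their part in the pump count was not tested.

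Of 13 brassinosteroid and PIF regulators, 8 were lower and 1 higher in chlorella-1 at 26 d (median log2 fold change -1.50), and 11 fell with age in chlorella-1 and 5 in Col. Of all genes, 31.8% were lower and 31.5% higher at 26 d, and 36.0% fell with age in chlorella-1 and 20.2% in Col. BRI1, the brassinosteroid receptor, was lower in chlorella-1 at 26 d by 1.87 ± 0.20 and CPD, a biosynthetic enzyme, by 2.35 ± 0.31. PRE1, a growth-promoting regulator, had 0 counts in old chlorella-1 leaves and 0.275, 2.11 and 0.476 CPM in old Col leaves. No gene of the 6 lists was called at 14 d with all libraries fitted.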

How the data were processed

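Leaf libraries were made with a stranded total RNA kit with plant ribosomal RNA removal, per the labels. The authors deposited whole-number read counts per gene, with FPKM columns beside them. Those 12 FPKM columns were not used. The TAIR10 build and the tools HTSeq, STAR, StringTie, HISAT2 and DESeq2 are named per the submitters' processing notes. Which tool did what, in which version and with what strand option is not given in the sources used here. The 50 rows that name no gene (0.0771% to 0.216% of a library's counts) were left out. Gene IDs were matched to the TAIR10.1 annotation (38288 of 38288).

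Counts of all 12 libraries (45120547 to 70452171) were fitted in 1 model with 4 groups in edgeR 4.0.16 (R 4.3.3), using filterByExpr, TMM and the quasi-likelihood test, with Benjamini-Hochberg adjustment over all genes tested. Alternatives were DESeq2 1.42.0 (its size factors and its test), limma 3.58.1 voom, other filters, nuclear genes only, a fold threshold, a replicate block, only the groups compared, and each library left out in turn. The fit was checked on simulated data. Floors are 3 counts over a group and cover counting error only. Promoter windows and figures used Python 3.11.15 and Matplotlib 3.10.9.

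The genes and lists were chosen with earlier results of these data known. Named members are, for each comparison, up to 5 called genes at either end of the fold changes that reach 1 CPM, the 10 most abundant, and 10 fixed genes (EXPA1, EXPA5, EXPA8, EXPA10, EXLA1, EXLA2, XTH4, TCH4, XTH24 and XTH33). Others named (EXPA9, EXPA15, EXPA20, XTH8, XTH19, XTH28, AHA9 and untested genes) were chosen after their values were seen. Of the 65 members, 7 overlap a gene on the opposite strand and 18 lie next to another member.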

Additional observations from a re-analysis of the deposited data

Results flagged for a closer look

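In 9 named members the change with age differed between chlorella-1 and Col by the interaction term of the edgeR fit, which is why they are listed here (log2 scale, chlorella-1 minus Col). The terms were 5.04 for XTH10, 3.30 for XTH29 and 2.15 for EXLB1. They were -6.67 for XTH25, -4.61 for XTH4, -4.09 for XTH7, -3.56 for EXPA1 and -2.71 for XTH6. For XTH31 the fitted term was -9.10, a value that depends on the prior count because chlorella-1 at 26 d had 0 counts. The terms of XTH10, XTH29, XTH25 and XTH31 passed under all 20 alternatives. The others lost their call under 8 to 12 of 19 or 20 alternatives.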

How the results depend on the processing

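The counts of members changed with age moved by less than 1.5 times under every alternative run, in both genotypes. At 14 d, 5 members were higher and 8 lower with only the groups compared, against 0 and 0 in the fit of all libraries. Of all genes, 6.40% were higher and 8.19% lower with only those groups. Leaving out a library changed the count higher to between 0 and 1 in the fit of all libraries, against 1 to 126 of all genes. In the fit of the 14 d groups it gave 4 to 5 higher and 7 to 8 lower, against 670 to 991 and 848 to 1358 of all genes. At 26 d, 6 were lower with only the groups compared, and 2 to 9 lower and 5 to 8 higher when a library was left out as well. Of all genes, 2687 to 4814 were then lower and 4396 to 5606 higher. DESeq2 called 11 higher and 9 lower at 26 d, against 7106 and 6187 of all 20398 genes tested. For the difference between genotypes in the age change, limma voom called 4 lower, against 4848 of all 20398 genes. Leaving out a library gave 2 to 4 higher and 3 to 13 lower, against 3682 to 4798 and 3248 to 4911 of all genes. The 13 were found without chlorella-1 26 d replicate 2, where 4911 of all 20871 genes were lower.

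Leaving out a library gave TCH4 values of -1.23 to 1.74 at 26 d, -1.01 to 1.99 with age in chlorella-1 and -2.23 to 0.74 for the difference. Without chlorella-1 26 d replicate 2, TCH4 changed sign and passed the test at 26 d (-1.23), with age in chlorella-1 (-1.01) and for the difference (-2.23), and likewise with only the groups compared (-1.23 and -0.98). The difference of EXPA10 also changed sign (-7.31, adjusted p = 0.00457; range -7.31 to 1.07). The causes were not tested. A sign change in which neither value passed occurred in 49 of 2965 recomputed values of named members. DESeq2 size factors moved the median log2 fold change of all genes at 26 d to 0.02, against -0.11 with TMM.

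Over all tested genes, same-numbered libraries deviated together little (correlations of -0.13 to 0.15). The highest value was between the replicate 2 libraries of the 26 d groups. Replicate 2 was also the most frequent highest library for the members in each group. Whether the numbers pair the libraries was therefore not settled. With the replicate number as a block, 7 members were higher and 12 lower at 26 d, against 6236 and 6411 of all 20398 genes tested. In that fit XTH24 lost its call (adjusted p = 0.0573). The fits with only the groups compared and 1 library left out were added after seeing the data. Genes with few counts, such as EXPA15 and EXPB5, are limited by depth.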
